A study of Mus musculus with 4 samples.

Results

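L2/3-Rorb and L2/3-Calb1 are the 2 upper-layer subtypes among the 7 subtypes of excitatory neurons that the authors named in the ventromedial prefrontal cortex (vmPFC) of the mouse. Their cells were taken directly from the subtype label that the authors deposited with each cell. The label put 689 neurons in L2/3-Rorb and 357 in L2/3-Calb1, together 1046 of 9368 labelled excitatory neurons. The 4 matrices hold 24801 cell barcodes in all.

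The cells came from male C57BL/6 mice that were 8 weeks old when they received rAAV2-retro viruses, which enter axon terminals and travel back to the cell body. The viruses carry EGFP and a short barcode, and had been placed in the agranular insula, dorsomedial striatum, mediodorsal thalamus, basolateral amygdala and lateral hypothalamus of every animal, so no library here comes from an uninjected mouse. There were 3 libraries of unsorted cells, each from 1 mouse, and 1 library of cells sorted for EGFP and pooled from 3 mice. L2/3-Rorb held 210, 160 and 194 cells in unsorted replicates 1, 2 and 3 and 125 in the sorted library, and L2/3-Calb1 held 111, 104, 102 and 40. Both subtypes were thus present in every library, and each comparison below is between sums of cells from the same animals.

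Neurons of layers 2 and 3 are mostly intratelencephalic cells: their axons stay within the cortex and striatum of both hemispheres. The layers are not uniform. Superficial cells commonly carry calbindin, a calcium-buffering protein encoded by Calb1, while the nuclear receptor gene Rorb marks intratelencephalic cells of middle layers. Cux2, a homeobox gene, is a general marker of upper layers, whereas Etv1 and Fezf2 are best known from layer 5 and Sulf1 from layer 6.

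Raw UMI counts (unique molecular identifiers, each standing for 1 captured transcript) were summed over the cells of a subtype in a library. The sums held 1101983 to 4479648 UMIs. Levels below are CPM, the UMIs of a gene scaled to the same total for every sum, and fold changes are L2/3-Rorb relative to L2/3-Calb1 from edgeR's quasi-likelihood test with the library as a block. Calls needed both an adjusted p (Benjamini-Hochberg) below 0.05 and a log2 fold change of 0.5 or more in size. Because the subtypes had been defined by clustering the same counts, the calls rank genes by size and by agreement between libraries. They are no independent test that the subtypes differ. Values are listed in the order unsorted replicate 1, 2, 3 and sorted library. The 4 libraries are separate samples, but the sorted one is a pool.

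The genes that gave the subtypes their names were checked before anything else. Rorb (ENSMUSG00000036192, chr19:18930605-19111196, minus strand, GRCm38) stood at 173, 172, 183 and 213 CPM in L2/3-Rorb and at 6.69, 9.83, 5.81 and 10.9 CPM in L2/3-Calb1. Calb1 (ENSMUSG00000028222, chr4:15881264-15908064, plus strand) stood at 28.4, 36.3, 40.2 and 26.1 CPM in L2/3-Rorb and at 325, 353, 302 and 341 CPM in L2/3-Calb1. Neither pair of ranges overlapped. The log2 fold change was 4.54 ± 0.12 (SE) for Rorb, with an edgeR adjusted p of 6.8e-31, and -3.28 ± 0.08 for Calb1, with an adjusted p of 2.6e-32. Since the labels were chosen with these genes in view, both values describe the labels.

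Both subtypes carried the general upper-layer marker. Cux2 was at 148, 142, 130 and 216 CPM in L2/3-Rorb and at 155, 187, 147 and 243 CPM in L2/3-Calb1. The ranges overlapped, and the log2 fold change of -0.17 ± 0.06 was under the size limit, with an edgeR adjusted p of 0.027. In the other 5 excitatory subtypes the mean Cux2 level was 0.724 to 5.05 CPM. Etv1 was at 85.5, 79.4, 73 and 85.2 CPM in L2/3-Rorb against 12.3, 15.7, 28.5 and 18.1 CPM in L2/3-Calb1, a log2 fold change of 2.12 ± 0.13. Its mean was 251 to 915 CPM in the 3 layer 5 subtypes, above both. Sulf1 was at 2.35 ± 1.4 CPM (mean ± SD, n = 4 libraries) and 3.38 ± 1.8 CPM, too low to enter the test, against 97.8 CPM in L6-Npy.

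Of 11224 genes tested, 2453 were called, which is 21.9% of those tested. L2/3-Rorb was higher for 1334 of them (11.9%) and L2/3-Calb1 for 1119 (9.97%). The median log2 fold change over all genes tested was -0.00, which stands beside each list median below. The share of 21.9% likewise stands beside the share called of each list. For 2640 genes (23.5%) the CPM ranges of the subtypes over the 4 libraries did not overlap. The plot of level against fold change shows calls in both directions from rare to abundant transcripts, with the largest fold changes among transcripts of low to middle level.

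**Figure D1:**
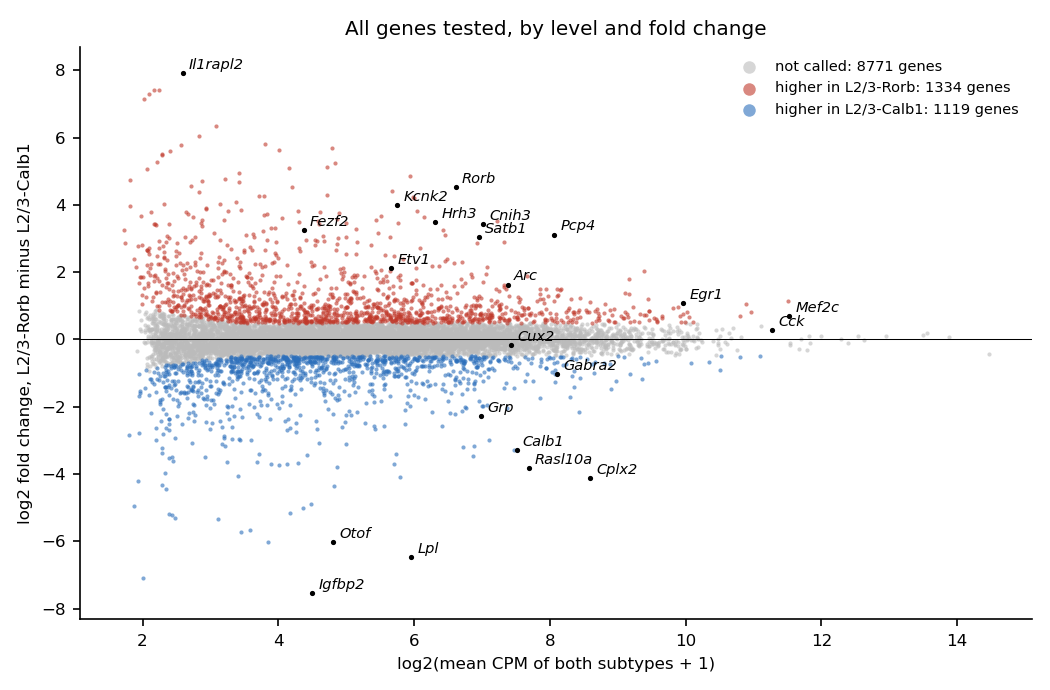
Each point is 1 gene tested, with the log2 of its mean CPM plus 1 on the x axis and its log2 fold change (L2/3-Rorb minus L2/3-Calb1) on the y axis. Red and blue points are the 1334 and 1119 genes called, grey points the 8771 not called, and black points the labelled genes; Cux2 lies near 0 between Rorb at 4.54 and Calb1 at -3.28.

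Among genes called, with at least 30 CPM in the higher subtype and the same direction in 4 of 4 libraries, the 10 highest fold changes towards L2/3-Rorb included those of Klhdc8a, Scn7a, Tcap, Rmst, Ptchd4, Rorb, Zmat4, Chml and Tnnc1. Klhdc8a, which encodes a kelch-domain protein, was at 56.9, 50.5, 50 and 59.1 CPM in L2/3-Rorb and at 1.54, 1.97, 1.45 and 0 CPM in L2/3-Calb1. Every L2/3-Rorb value was far above every L2/3-Calb1 value, and the log2 fold change was 5.25 ± 0.23. Scn7a encodes the sodium-sensing channel Nax and was at 53.3, 47.8, 46.2 and 48.8 CPM against 2.57, 0.983, 0.968 and 0.907 CPM.

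Some of these genes are better known outside the cortex. Tnnc1, the troponin C of slow and cardiac muscle, was at 125, 133, 141 and 76.3 CPM in L2/3-Rorb against 6.17, 8.85, 7.26 and 2.72 CPM in L2/3-Calb1. Tcap, which encodes the titin-capping protein of the sarcomere, was at 32.9 ± 7.7 CPM against 0.968 ± 0.79 CPM (mean ± SD, n = 4 libraries). Rmst, a long non-coding RNA, was at 117 ± 6.8 CPM against 4.32 ± 2.1 CPM. Ptchd4, a patched-domain gene, and Zmat4, a zinc-finger gene, had log2 fold changes of 4.54 ± 0.26 and 4.41 ± 0.16. Chml, a Rab escort protein gene, had 4.30 ± 0.22, but Opn3 overlaps it in the same orientation, which makes its count uncertain.

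Towards L2/3-Calb1 the 10 largest fold changes were those of Igfbp2, Lpl, Otof, Arhgef26, Ankrd63, Pdyn, Evc2, Cplx2, Myh7 and Rasl10a. Cplx2 encodes complexin 2, a small protein that binds the vesicle fusion machinery of the synapse, and was the most abundant of them. It was at 633, 636, 610 and 1045 CPM in L2/3-Calb1 against 33.1, 35.7, 40.4 and 51.5 CPM in L2/3-Rorb, a log2 fold change of -4.13 ± 0.06 with an edgeR adjusted p of 6.5e-40. Lpl, the lipase that frees fatty acids from lipoproteins, was at 131, 104, 121 and 127 CPM against 1.13, 0.275, 1.34 and 2.45 CPM. Otof, a calcium sensor best known from hair cell synapses, was at 50.9, 49.2, 42.6 and 69.9 CPM against 0.225, 0.824, 0.67 and 1.36 CPM. In each of these genes the groups were far apart.

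Igfbp2 encodes a binding protein of insulin-like growth factors and was nearly absent from L2/3-Rorb. It was at 43.7, 56.5, 47.9 and 23.6 CPM in L2/3-Calb1, while the whole of L2/3-Rorb held 3 UMIs of it against 325. The ratio of these pooled levels was 246-fold, with an exact 95% interval of 83.5 to 1200 that covers counting error only. Pdyn, the precursor of the dynorphin opioid peptides, was at 37.5, 27.5, 38.7 and 60.8 CPM against 1.13, 1.65, 0.446 and 2.18 CPM. Rasl10a, a small Ras-like GTPase, was at 384 ± 51 CPM against 26.9 ± 5.7 CPM (mean ± SD, n = 4 libraries), and Myh7, a cardiac myosin heavy chain, at 103 ± 14 CPM against 5.86 ± 1.6 CPM. Arhgef26 (a RhoG exchange factor), Evc2 (a ciliary protein) and Ankrd63 had log2 fold changes of -5.15 ± 0.25, -4.35 ± 0.17 and -5.01 ± 0.23.

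**Figure D2:**
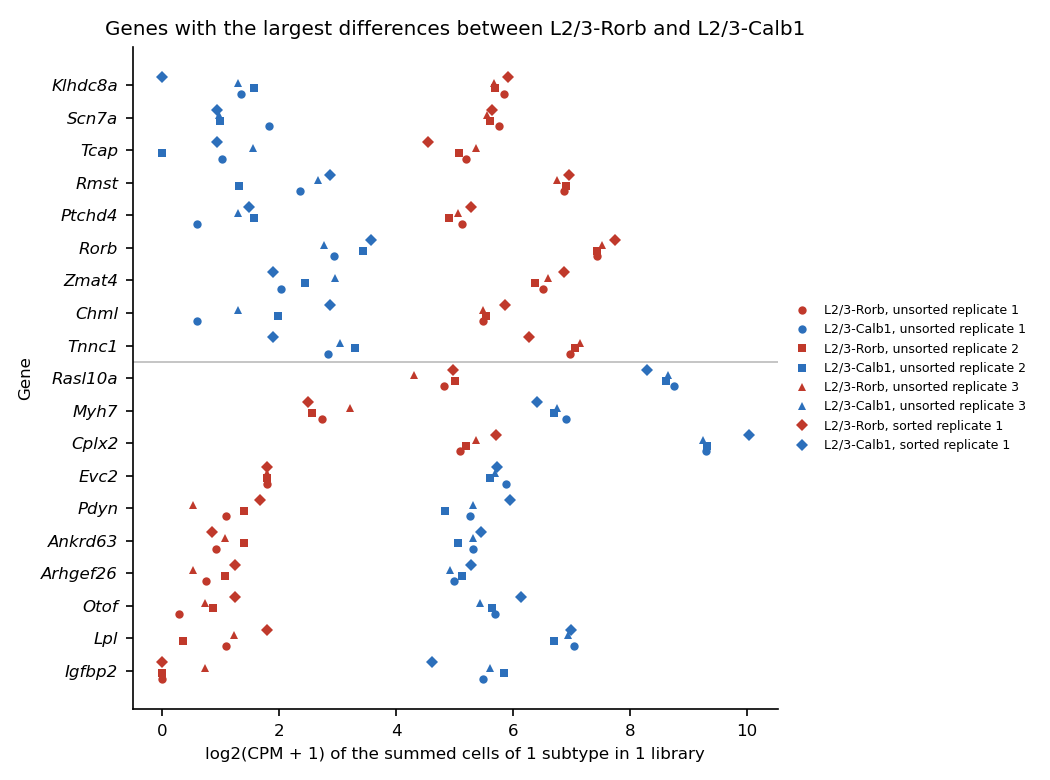
The x axis is the log2 of CPM plus 1 in the summed cells of 1 subtype in 1 library, and each row is a gene, with 1 symbol per library in red for L2/3-Rorb and in blue for L2/3-Calb1. The 9 genes above the line are among the 10 with the highest fold changes towards L2/3-Rorb, the 10 below are those towards L2/3-Calb1, and in all 19 the red and blue symbols stay apart.

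Transcription factors were among the groups with many calls. In the list of upper-layer and intratelencephalic factors, 77.3% of 22 tested members were called, against 21.9% of all genes tested. These were 11 higher in L2/3-Rorb and 6 higher in L2/3-Calb1, with a list median log2 fold change of 0.53. Satb1, a chromatin organizer, was at 200, 198, 189 and 287 CPM in L2/3-Rorb and at 22.1, 22.1, 22.7 and 45.4 CPM in L2/3-Calb1, a log2 fold change of 3.05 ± 0.09. Pou3f1, a POU-domain factor, went the other way, with 5.18, 6.59, 8.48 and 3.81 CPM against 35.5, 44.7, 44.5 and 33.6 CPM. Mef2c, an activity-regulated factor and the most abundant member, was at 3363, 3356, 3543 and 4149 CPM against 1995, 2210, 2155 and 2823 CPM, a modest log2 fold change of 0.70 ± 0.04.

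Deep-layer factors were also more often higher in L2/3-Rorb: 8 of 12 tested members of 15 measured, against 2 in L2/3-Calb1, with a median log2 fold change of 0.84. Together 83.3% of the tested members were called. Fezf2, a zinc-finger gene that specifies subcortically projecting neurons of layer 5, was at 36, 39.3, 39.1 and 29.1 CPM in L2/3-Rorb and at 0.514, 4.43, 7.74 and 1.81 CPM in L2/3-Calb1. Its mean of 35.9 CPM in L2/3-Rorb was under the 58.3 to 277 CPM of the layer 5 subtypes. Bcl11b (CTIP2), which acts with Fezf2 in the same cells, went the other way, at 11.5 ± 2.8 CPM in L2/3-Rorb and 37.5 ± 6.8 CPM in L2/3-Calb1 (mean ± SD, n = 4 libraries). Tcerg1l also fell on that side, with a log2 fold change of -2.42 ± 0.18. The list did not move as 1 program.

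Called members of the marker lists of layer position split almost completely by direction. Of 15 markers of layer 2/3 intratelencephalic cells, 12 passed the filter on low counts, and of these, 10 were called higher in L2/3-Calb1 and 0 in L2/3-Rorb (median log2 fold change -1.88). Of 16 markers of layer 4/5 intratelencephalic cells, 11 passed, and of these, 10 were called higher in L2/3-Rorb and 0 in L2/3-Calb1 (median 3.55). Rorb and Calb1 are themselves members, and such markers take part in clustering, so these counts describe the labels. Within L2/3-Rorb the summed levels of the measured members were similar, at 402 to 581 CPM (layer 2/3) and 456 to 618 CPM (layer 4/5). In L2/3-Calb1 they were 1399 to 1885 CPM and 46.8 to 73.5 CPM. Il1rapl2, a synaptic adhesion gene related to interleukin-1 receptors, was at 10.6, 10.7, 10.3 and 8.72 CPM in L2/3-Rorb and had 0 UMIs in all L2/3-Calb1 cells, which makes its pooled level at least 24.1-fold higher against a floor of 3 UMIs over the subtype. Pld5, also at 0 UMIs there and named after its values were seen, was at least 15.6-fold higher. Both bounds lie above the median of the list, which is therefore the same with them. Whrn, the gene of the scaffold protein whirlin, was at 23.2 ± 7 CPM against 1.09 ± 0.24 CPM, and Igfn1, from the layer 2/3 list, at 1.15 ± 0.54 CPM against 15.8 ± 2.8 CPM.

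**Figure D3:**
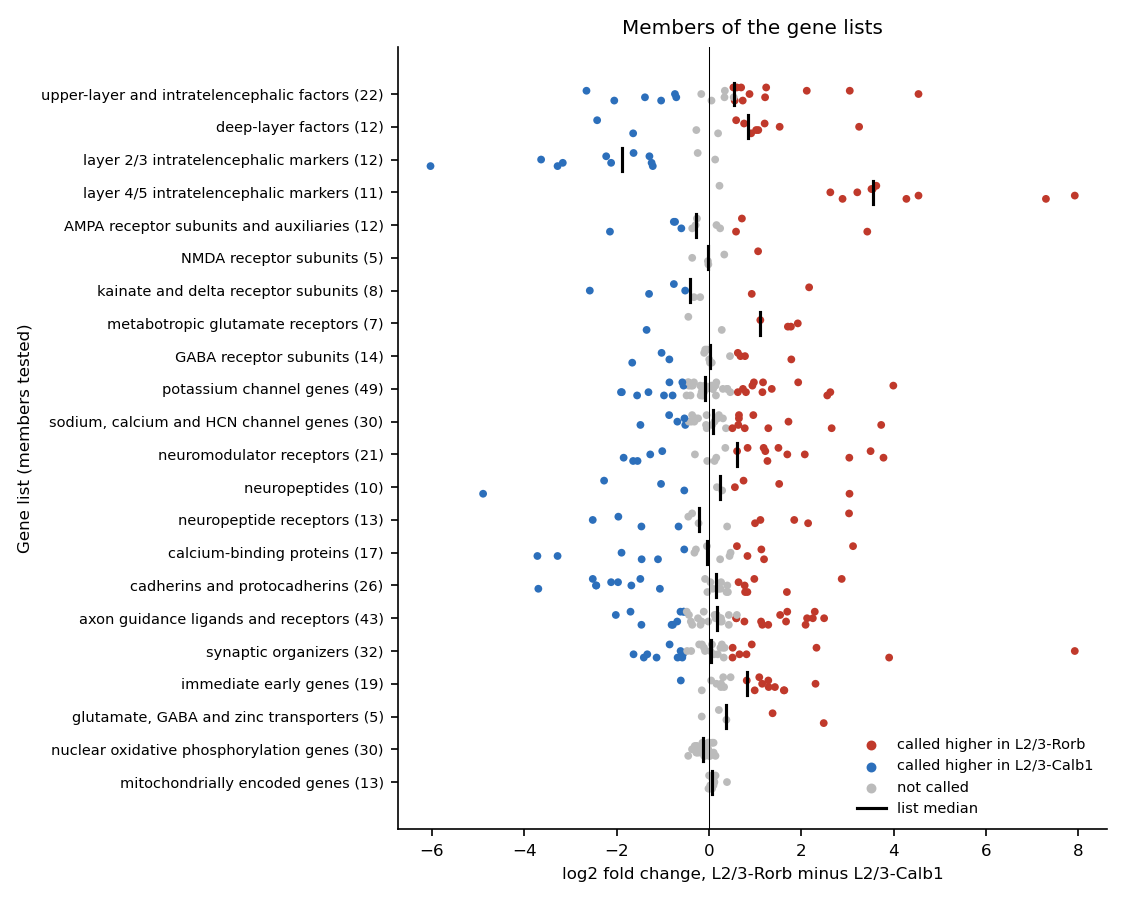
Each row is a gene list with its number of tested members, and each point is the log2 fold change of 1 member on the x axis, red where called higher in L2/3-Rorb, blue where called higher in L2/3-Calb1 and grey where not called; black bars are list medians. The layer 4/5 list sits at a median of 3.55, the layer 2/3 list at -1.88, and both lists of respiratory-chain genes lie close to 0.

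Single cells kept a partial overlap of the name genes. Each cell was thinned to 10000 UMIs so that depth was equal, which left 683 L2/3-Rorb and 350 L2/3-Calb1 cells. In L2/3-Rorb, 473 cells (69.3%) held a Rorb UMI, 123 (18.0%) a Calb1 UMI, 104 (15.2%) both and 191 (28.0%) neither. In L2/3-Calb1, 14 cells (4%) held a Rorb UMI, 317 (90.6%) a Calb1 UMI, 13 (3.71%) both and 32 (9.14%) neither. Cells holding both were thus more frequent in L2/3-Rorb, at 12 to 17.7% by library against 1.98 to 7.69%.

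Free RNA can give UMIs in cells that do not use a gene. Cell barcodes outside the neuron metadata that carried at least 10 UMIs of a set of microglial genes, C1qa, C1qb and C1qc among them, served as a reference, and all cells were thinned to 2000 UMIs for it. A Calb1 UMI was then found in 4.38 to 9.28% of L2/3-Rorb cells by library, against 0 to 0.65% of the microglial barcodes. A Rorb UMI was found in 0 to 2.5% of L2/3-Calb1 cells, against 0 to 0.939% of the microglial barcodes, and these ranges overlapped. Median depths before thinning were 17473 to 29465 UMIs in the neurons and 4227 to 7209 in the microglial barcodes. Mean levels in microglial barcodes of the unsorted libraries were 62.5 CPM for Etv1 and 76.8 CPM for Whrn. Both lay above the L2/3-Calb1 means of 18.7 and 1.09 CPM, and that of Whrn also above the 23.2 CPM of L2/3-Rorb. The part of free RNA in these values was not tested.

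Glutamate receptor genes differed mainly in auxiliary subunits and in metabotropic receptors. Ionotropic receptors of the AMPA, NMDA and kainate classes carry fast excitation, and their auxiliary proteins set gating and traffic. Of 14 AMPA receptor genes measured, 12 were tested and 58.3% of these called, 3 higher in L2/3-Rorb and 4 in L2/3-Calb1. Cnih3, a cornichon auxiliary subunit, was at 220, 208, 203 and 306 CPM in L2/3-Rorb and at 17, 23.6, 18.9 and 29.9 CPM in L2/3-Calb1, a log2 fold change of 3.43 ± 0.09. Gsg1l, an auxiliary subunit of another family, had the reverse pattern, with 27.7, 26.6, 23.4 and 29.1 CPM against 116, 109, 96.3 and 177 CPM. The pore-forming Gria3 was higher in L2/3-Calb1 (-0.76 ± 0.05) and Gria4 in L2/3-Rorb (0.71 ± 0.08), while Gria1 and Gria2 had log2 fold changes of -0.36 ± 0.05 and -0.29 ± 0.04 and were not called.

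The auxiliary genes Cacng2 and Cacng3 were called in opposite directions, at 0.59 ± 0.07 and -0.60 ± 0.06 on the log2 scale. Cacng8 was called higher in L2/3-Calb1 at -0.73 ± 0.25 with overlapping ranges of 4.36 to 6.59 and 5.66 to 12.7 CPM, and 6 of the 10 alternatives that tested it kept the call. That of Cacng2 was kept in 12 of 13. Cacng4, Shisa9 and Cnih2 were not called, at 0.16 ± 0.14, 0.24 ± 0.07 and -0.26 ± 0.06. Shisa6 and Cacng5 were too low to test, at means of 1.04 and 0.543 CPM in L2/3-Rorb and 1.14 and 0 CPM in L2/3-Calb1.

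Of 7 NMDA receptor subunits measured, 5 were tested and 1 was called (20%, against 21.9% of all genes tested). This was Grin3a, an inhibitory subunit, at 72.9, 72.5, 80.4 and 145 CPM in L2/3-Rorb and 38.6, 43.3, 39.2 and 54.4 CPM in L2/3-Calb1; Ppp3r2 overlaps it on the same strand, so the count is uncertain. The obligatory subunit Grin1 was at 249 ± 47 CPM against 258 ± 50 CPM (mean ± SD, n = 4 libraries). Grin2a and Grin2d had log2 fold changes of -0.02 ± 0.05 and 0.33 ± 0.33. Grin2b was lower in L2/3-Rorb in 4 of 4 libraries, with a log2 fold change of -0.36 ± 0.04 and an edgeR adjusted p of 8.2e-10, and stayed under the size limit. Grin2c and Grin3b held 1 and 3 UMIs in all cells of L2/3-Rorb and 0 in L2/3-Calb1.

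Among kainate and delta receptor genes, 2 of 8 tested (of 9 measured) were called higher in L2/3-Rorb and 4 in L2/3-Calb1 (75% called). Neto2, an auxiliary subunit of kainate receptors, was at 9.9, 13.2, 14.5 and 7.63 CPM in L2/3-Rorb and at 61.2, 76.2, 64.3 and 86.2 CPM in L2/3-Calb1. Its relative Neto1 followed, at -1.30 ± 0.13 on the log2 scale, and so did the subunits Grik4 (-0.76 ± 0.17) and Grik2 (-0.52 ± 0.10). The call of Grik2 was kept in 8 of 13 alternatives, with a log2 fold change of -0.14 in neurons without a viral UMI, and that of Grik4 in 12 of 13. Grik3 was at 15.1, 18.1, 19.4 and 31.3 CPM against 1.54, 5.41, 4.35 and 8.17 CPM, higher in L2/3-Rorb. Grik5 and Grid1 were not called, at -0.19 ± 0.08 and -0.33 ± 0.12, and Grik1 held 23 and 3 UMIs.

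Metabotropic glutamate receptors were mostly higher in L2/3-Rorb. Of 7 tested, 71.4% were called. L2/3-Rorb was higher in 4 of them, and all 4 couple to Gi proteins. Grm2 was at 63.7, 66.8, 83.3 and 120 CPM in L2/3-Rorb and at 17.5, 25.6, 18.4 and 40.8 CPM in L2/3-Calb1. Grm3 was at 38.9, 37.6, 42.4 and 93.4 CPM against 13.9, 11.8, 8.71 and 21.8 CPM. Grm8 and Grm4 had log2 fold changes of 1.71 ± 0.22 and 1.11 ± 0.26, and Grm7, the remaining Gi-coupled member of the list, 0.28 ± 0.08, which was not called. In the other direction 1 member was called, and the Gq-coupled Grm5 was not called at -0.45 ± 0.05.

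GABA receptor subunits differed in the alpha subunits and in delta. Of 14 tested, 4 were called higher in L2/3-Rorb, 3 in L2/3-Calb1 and 7 neither way (50% called). Gabra5, whose receptors carry tonic inhibition at extrasynaptic sites, was at 69.3, 68.4, 71.9 and 71.1 CPM in L2/3-Rorb and at 19.5, 26.6, 16 and 21.8 CPM in L2/3-Calb1. Gabrd, another subunit of tonic receptors, had the opposite direction, with 19.1, 15.4, 17 and 8.72 CPM against 54.5, 54.1, 57.1 and 29.9 CPM. Gabra2, an alpha subunit of synaptic receptors, was at 178 ± 25 CPM against 373 ± 66 CPM (mean ± SD, n = 4 libraries).

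Gabrg3 was higher in L2/3-Rorb at 0.62 ± 0.11, and Gabrg1 was higher in L2/3-Calb1 at -0.86 ± 0.23, with overlapping ranges of 3.02 to 9.82 and 9.34 to 15.4 CPM. These calls were kept in 11 of 13 and 9 of 12 alternatives. The metabotropic subunits Gabbr1 and Gabbr2 had log2 fold changes of 0.06 ± 0.04 and 0.01 ± 0.05. The beta subunits Gabrb1 and Gabrb2 were not called either, at 0.45 ± 0.05 and -0.10 ± 0.18. Gabra3 and Gabra4 were at -0.04 ± 0.07 and 0.02 ± 0.06.

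Voltage-gated and leak channels contributed a further group. Of 53 potassium channel genes 49 were tested, and 42.9% of these were called, against 21.9% of all genes tested. L2/3-Rorb was higher in 12 and L2/3-Calb1 in 9, with a list median log2 fold change of -0.09 (0.02 in neurons without a viral UMI). Kcnk2, the leak channel TREK-1, was at 96.8, 99.2, 95.1 and 107 CPM in L2/3-Rorb and at 4.63, 4.92, 8.71 and 7.26 CPM in L2/3-Calb1, a log2 fold change of 3.99 ± 0.14. The voltage-gated Kcnh5 and Kcng1 followed at 2.63 ± 0.20 and 2.56 ± 0.22. The most abundant member, the calcium-activated channel Kcnma1, was at 553 ± 120 CPM against 334 ± 120 CPM and was called at 0.80 ± 0.05, although its ranges of 476 to 729 and 260 to 506 CPM overlapped.

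Of 31 sodium, calcium and HCN channel genes 30 were tested, and 50% of these were called. L2/3-Rorb was higher in 10 and L2/3-Calb1 in 5 (list median 0.09, and -0.03 in neurons without a viral UMI). Cacna1i, a low-threshold calcium channel, was at 65.9, 56.3, 58.5 and 88.5 CPM in L2/3-Rorb and at 17, 18.2, 17.4 and 33.6 CPM in L2/3-Calb1. Hcn3, a pacemaker channel, was at 17.8 ± 7.2 CPM against 2.75 ± 1.2 CPM (mean ± SD, n = 4 libraries). Fgf13, which binds sodium channels inside the cell, was higher in L2/3-Calb1, at 186, 182, 160 and 170 CPM against 63.9, 65.9, 60 and 51.5 CPM. Scn2a, the most abundant member, was called at 0.51 ± 0.05, at the edge of the size limit, and 5 of 13 alternatives kept the call.

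Receptors for neuromodulators were called in 16 of 21 tested members (of 42 measured), 11 of them higher in L2/3-Rorb (52.4%, against 11.9% of all genes tested) and 5 higher in L2/3-Calb1 (23.8%, against 9.97%). Hrh3, the histamine autoreceptor, was at 126, 124, 121 and 203 CPM in L2/3-Rorb and at 12.9, 11.3, 8.71 and 20 CPM in L2/3-Calb1, a log2 fold change of 3.50 ± 0.11. Adra1b, an alpha-1 adrenergic receptor, was at 42.5, 48.1, 44 and 38.7 CPM against 2.57, 0.983, 4.84 and 5.44 CPM. Cnr1, the cannabinoid receptor of axon terminals, was at 368, 313, 362 and 399 CPM against 140, 117, 113 and 154 CPM. Htr1f, a serotonin receptor, was lower in level, at 10.4 ± 1.9 CPM against 1.21 ± 0.83 CPM. Chrm3 and Htr2a are both Gq-coupled and were picked after their values were seen. Chrm3, a muscarinic receptor, was higher in L2/3-Calb1 (log2 fold change -1.85 ± 0.12) and Htr2a, a serotonin receptor, in L2/3-Rorb (2.08 ± 0.13).

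Neuropeptide genes were called in 8 of 10 tested members (80%, of 23 measured), 4 each way. Beside Pdyn, Grp (gastrin-releasing peptide) was higher in L2/3-Calb1, at 244, 237, 278 and 78 CPM against 44.6, 57.4, 50.2 and 19.1 CPM in L2/3-Rorb. The sorted library had the lowest value in both subtypes. Adcyap1, the precursor of the peptide PACAP, was at 53.8, 42, 59.8 and 61.6 CPM in L2/3-Rorb and at 3.6, 6.39, 5.81 and 13.6 CPM in L2/3-Calb1. Cck, the most abundant neuropeptide gene of the list, was at 2693 ± 1000 CPM against 2256 ± 850 CPM and was not called (0.29 ± 0.04).

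Peptide receptors followed no single direction, with 5 of 13 tested (of 24 measured) called higher in L2/3-Rorb and 4 in L2/3-Calb1 (69.2% called). This balance depended on the fit. With cells thinned to equal UMIs, 8 were tested, 4 higher in L2/3-Rorb and 1 in L2/3-Calb1. Over all fits the counts were 2 to 5 and 1 to 5. Sstr2, a somatostatin receptor, was at 19.8, 22, 17.4 and 23.7 CPM in L2/3-Rorb and at 1.54, 3.44, 3.87 and 0 CPM in L2/3-Calb1, whereas Sstr1, a receptor of the same family, was at 2.48, 2.47, 1.56 and 4.09 CPM against 9.77, 9.83, 8.22 and 14.5 CPM. The pair of somatostatin receptors thus lay on opposite sides. Trhr, the receptor of thyrotropin-releasing hormone, was at 20.5 ± 3.3 CPM against 4.6 ± 0.56 CPM. Npy1r, the most abundant member, was not called at -0.45 ± 0.08.

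Calcium-binding proteins beyond calbindin differed as well, with 5 of 17 tested members (of 22 measured) higher in L2/3-Rorb and 6 in L2/3-Calb1 (64.7% called). Necab2 was at 111, 93.4, 109 and 67.2 CPM in L2/3-Calb1 and at 7.65, 7.42, 6.47 and 7.08 CPM in L2/3-Rorb. Pcp4, a regulator of calmodulin that marks deep layers, was at 467, 486, 558 and 412 CPM in L2/3-Rorb and at 17, 82.1, 98.2 and 19.1 CPM in L2/3-Calb1. Its L2/3-Calb1 values were uneven, and the mean in microglial barcodes of the unsorted libraries was 242 CPM, above the 54.1 CPM of L2/3-Calb1; the part of free RNA in these values was not tested.

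Cell adhesion and guidance molecules were called in both directions. Of 27 cadherins and protocadherins 26 were tested and 61.5% of these called, 7 higher in L2/3-Rorb and 9 in L2/3-Calb1. Cdh9 was at 24.2, 26.1, 28.5 and 24.5 CPM in L2/3-Calb1 and at 2.93, 1.92, 1.12 and 1.63 CPM in L2/3-Rorb, and Pcdh8 at 98.3 ± 7.9 CPM against 16.7 ± 1.8 CPM (mean ± SD, n = 4 libraries). Fat3, a giant atypical cadherin, was at 192, 180, 187 and 287 CPM in L2/3-Rorb and at 24.2, 25.1, 21.3 and 53.5 CPM in L2/3-Calb1. Pcdh10, the most abundant member, was at 438 ± 32 and 395 ± 67 CPM and was not called.

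Of 50 axon guidance genes 43 were tested and 53.5% of these called, 14 higher in L2/3-Rorb and 9 in L2/3-Calb1 (list median 0.17). Ntng1, the membrane-anchored netrin-G1, was at 73.6, 77.7, 78.8 and 114 CPM in L2/3-Rorb and at 14.4, 11.3, 13.5 and 25.4 CPM in L2/3-Calb1. Efna5, an ephrin ligand, was at 97, 99.4, 89.5 and 126 CPM against 18, 23.6, 16 and 46.3 CPM, and its receptor Epha4, the most abundant member, at 700 ± 120 CPM against 425 ± 93 CPM. The secreted semaphorin Sema3d had a log2 fold change of 2.29 ± 0.29. All of these were higher in L2/3-Rorb.

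Synaptic organizers are the adhesion and secreted proteins that align the sides of a synapse. They had 8 of 32 tested members (of 34 measured) higher in L2/3-Rorb and 9 in L2/3-Calb1 (53.1% called). After Il1rapl2, the largest changes were in Cbln4, a secreted cerebellin, at 9.9, 14.3, 15.2 and 10.9 CPM in L2/3-Rorb against 1.03, 1.97, 0 and 0 CPM in L2/3-Calb1, and in the teneurin Tenm1, at 125, 123, 130 and 194 CPM against 21.1, 26.1, 26.6 and 45.4 CPM.

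Transporters of glutamate, GABA and zinc had 2 of 5 tested members (of 8 measured) higher in L2/3-Rorb and 0 in L2/3-Calb1 (40% called). Slc1a2, the glutamate transporter GLT-1, was at 690, 683, 705 and 1059 CPM in L2/3-Rorb and at 247, 273, 258 and 492 CPM in L2/3-Calb1. Slc17a6 (VGLUT2) was at 5.63, 7.42, 6.03 and 5.99 CPM against 0, 0.492, 3.39 and 0 CPM. Slc17a7 (VGLUT1), the vesicular transporter of most cortical excitatory neurons, was at 1041 ± 120 CPM against 826 ± 120 CPM and was not called at 0.38 ± 0.04. The vesicular zinc transporter Slc30a3 (0.21 ± 0.06) and the glutamate transporter Slc1a1 (-0.16 ± 0.10) were not called. Slc32a1 and Slc17a8 were too low to test, at 1.14 and 0.938 CPM in L2/3-Rorb and 0.121 and 0.348 CPM in L2/3-Calb1.

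Transcription of immediate early genes rises within minutes of synaptic activity or of stress. L2/3-Rorb was higher in 10 of 19 tested members (52.6%, against 11.9% of all genes tested). L2/3-Calb1 was higher in 1, Ptgs2 (5.26%, against 9.97%), and the list median log2 fold change was 0.82. Ier2 was at 197, 165, 183 and 144 CPM in L2/3-Rorb and at 29.8, 41.8, 47.9 and 17.2 CPM in L2/3-Calb1, a log2 fold change of 2.31 ± 0.10. Arc, which encodes a synaptic capsid-like protein, was at 232, 206, 244 and 322 CPM against 66.3, 73.8, 98.7 and 84.4 CPM. Npas4, an inducible factor tied to depolarization, was at 251, 193, 235 and 286 CPM against 68.4, 71.3, 111 and 56.3 CPM, and the abundant factor gene Egr1 at 1389, 1227, 1351 and 1428 CPM against 693, 573, 660 and 675 CPM. All groups were apart in these members.

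Of the 19 members, 17 had a positive log2 fold change. Junb, Jun and Homer1, picked after their values were seen, were positive but not called, at 0.31 ± 0.05, 0.05 ± 0.05 and 0.33 ± 0.05. Taken per cell, immediate early genes made up a median of 0.489, 0.407, 0.496 and 0.483% of UMIs in L2/3-Rorb and 0.256, 0.216, 0.238 and 0.251% in L2/3-Calb1. The difference of 0.229 points was in the same direction in 4 of 4 libraries (exact sign-flip permutation test over libraries, two-sided p = 0.13, the smallest p that 4 pairs allow). Levels in microglial barcodes of the unsorted libraries were above both subtypes for Ier2 (654 CPM) and Egr1 (1605 CPM) and below both for Arc (45.5 CPM) and Npas4 (43.3 CPM). How dissociation and free RNA bear on the list was not tested.

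Promoters of these inducible genes were read from RefSeq's GRCm38.p6 sequences because 10 of the 19 members were called in 1 direction. Of the 19 genes, 15 had an entry. The 250 bases before the start site were searched for the cAMP response element TGACGTCA and for the CArG box, the motif of serum response factor. The element reads the same on both strands, and a CArG box on 1 strand is also a CArG box on the other. The element was found in Dusp1, called higher in L2/3-Rorb (1.28 ± 0.10), and in Btg2, not called (0.16 ± 0.10), and a CArG box in Egr2, called higher (0.99 ± 0.13). Over all 27025 genes with an entry, 1.77% held the element and 1.62% the CArG box. The windows are given with the motif in capitals, 143, 166 and 72 bases before the start site and at chr17:26508597-26508626 (minus strand), chr1:134079303-134079332 (minus strand) and chr10:67537484-67537513 (plus strand). A match is a description of the letters only.
Dusp1: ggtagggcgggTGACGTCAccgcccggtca
Btg2: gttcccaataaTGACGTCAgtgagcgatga
Egr2: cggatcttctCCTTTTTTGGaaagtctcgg

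Respiratory-chain genes gave a contrast to the lists above. Of 30 nuclear genes of oxidative phosphorylation, 0 were called either way by edgeR or by DESeq2, with a median log2 fold change of -0.12. The edgeR p was under 0.05 for 17 of them unadjusted and for 14 adjusted, at sizes under the limit. Of 13 mitochondrially encoded genes, 0 were called by either tool (median 0.07), with 6 under 0.05 unadjusted and 4 adjusted. Cox8a, the most abundant nuclear member, was at -0.32 ± 0.04, under the size limit. The mitochondrial members ranged from -0.01 ± 0.04 (mt-Cytb) to 0.39 ± 0.13 (mt-Nd6); neighbours such as mt-Atp8, mt-Atp6 and mt-Co3 overlap on the same strand.

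Excitatory identity was present in both subtypes, and markers of other cells were scarce. Summed over 6 excitatory markers, levels were 2102 to 3036 CPM in L2/3-Rorb and 1704 to 2840 CPM in L2/3-Calb1. Of these, 4 were called higher in L2/3-Rorb, among them Neurod6, Neurod2 and Tbr1 at 1.22 ± 0.06, 0.73 ± 0.07 and 0.56 ± 0.07, while Camk2a was not called (-0.25 ± 0.04). The call of Tbr1 was kept in 12 of 13 alternatives. The 8 inhibitory markers summed to 1.09 to 33.5 CPM and 2.42 to 5.14 CPM, the 9 microglial markers to 8.44 to 32.2 CPM and 5.44 to 31.4 CPM, and the 5 precursor markers of oligodendrocytes to 2.18 to 10.9 CPM and 1.81 to 6.88 CPM. None of the inhibitory markers passed the filter, but they held more UMIs in L2/3-Rorb: Gad1 and Gad2, the enzymes of GABA synthesis, had 90 and 83 UMIs there against 7 and 7 in L2/3-Calb1, and Lhx6 had 16 against 0. Without the filter 3 of the 8 were called higher in L2/3-Rorb by edgeR, and without the sorted library 1 was. Their part in other results was not tested.

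Astrocyte markers were an exception in kind. All 3 tested members were called, in both directions: Slc1a3, the transporter GLAST, was at 25.2, 14.8, 20.3 and 12.7 CPM in L2/3-Calb1 and at 0.9, 0, 2.9 and 0 CPM in L2/3-Rorb, Slc4a4 at 32.1 ± 4.9 CPM against 12.6 ± 1.3 CPM, and Aldoc at 4.38 ± 1.7 CPM against 10.4 ± 3 CPM. The defining markers Gfap (0 UMIs in both), Gja1 (6 and 0 UMIs) and Aqp4 (0.224 and 0.72 CPM) were at or near 0, and the 7 markers summed to 22.1 to 31.9 CPM in L2/3-Rorb and 52.6 to 60.5 CPM in L2/3-Calb1. Mobp was the only tested oligodendrocyte marker called of 3 (0.94 ± 0.22, kept in 12 of 13 alternatives), with Mbp at 0.41 ± 0.11, and the 7 markers together summed to 69.5 to 81.3 CPM and 54.2 to 65.3 CPM. The 9 endothelial and mural markers summed to 3.54 to 24.1 CPM and 1.81 to 12.9 CPM.

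The genes that separate the subtypes were then read in the other 5 excitatory subtypes, which took no part in the comparison. For each called gene the mean log2 level of another subtype was placed on the side of the nearer upper-layer subtype. L5-S100b lay nearer to L2/3-Rorb for 1028 of 1334 genes higher in L2/3-Rorb (77.1%) and for 949 of 1119 genes higher in L2/3-Calb1 (84.8%). In L6-Npy the corresponding values were 34.8% and 47.2%, so it was on the side of L2/3-Calb1 for most genes of either kind. L5-Bcl6 (41.1% and 61.6%), L5-Htr2c (51.0% and 66.3%) and L6-Syt6 (46.8% and 67.5%) lay between. These shares are descriptions, since all subtypes come from the same libraries and from 1 clustering.

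Individual genes followed this pattern in part. Klhdc8a was at 48.6 CPM in L5-S100b and 47.2 CPM in L5-Htr2c, close to the 54.1 CPM of L2/3-Rorb, and Rmst at 62.3 CPM in L5-S100b against 117 CPM. Scn7a, Tcap and Tnnc1 were at 7.47, 3.58 and 22.5 CPM in L5-S100b and at most 0.534, 1.04 and 7.05 CPM in the other 4, far under their L2/3-Rorb means of 49, 32.9 and 119 CPM. On the other side, Lpl and Rasl10a were at 68.2 and 465 CPM in L6-Npy, while Pdyn and Arhgef26 were at 40.8 and 35.5 CPM in L5-Bcl6, near their L2/3-Calb1 means of 41.1 and 33.1 CPM. Igfbp2 was at most 0.621 CPM in the other 5 subtypes.

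**Figure D4:**
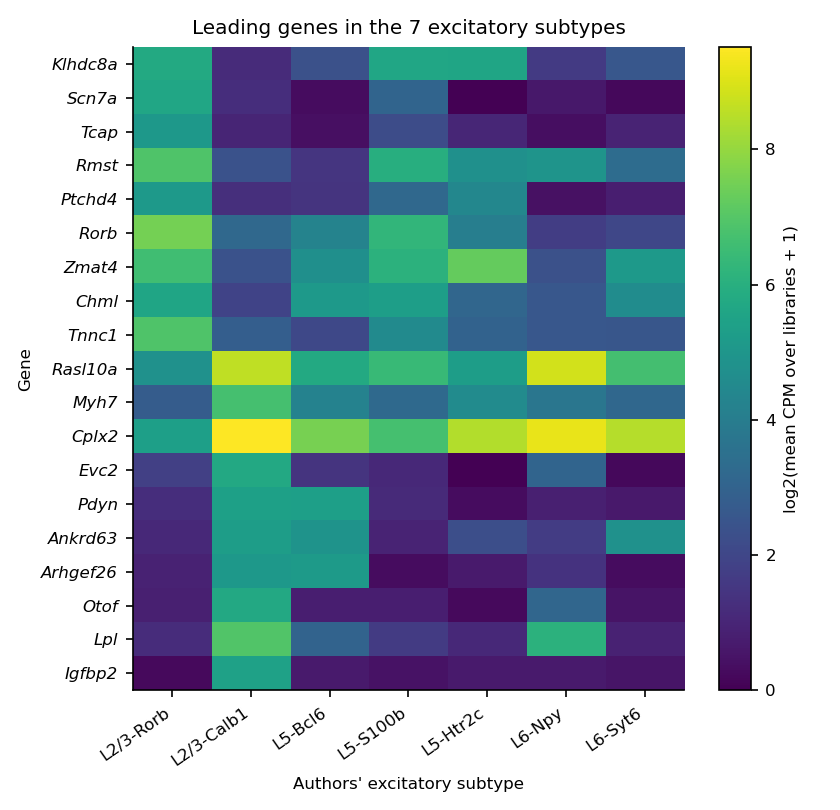
Rows are 19 of the 20 leading genes and columns the 7 excitatory subtypes, and the colour is the log2 of the mean CPM over libraries plus 1 (the sorted library is left out for L5-Htr2c). Klhdc8a is also bright in L5-S100b and L5-Htr2c, Lpl and Rasl10a in L6-Npy and Pdyn and Arhgef26 in L5-Bcl6, whereas Igfbp2 is bright in L2/3-Calb1 alone.

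Cells of the subtypes also differed in depth and in viral label. Median UMIs per cell were 20690, 21634, 22735 and 29465 in L2/3-Rorb and 17473, 19256, 19425 and 28116 in L2/3-Calb1, higher in L2/3-Rorb in 4 of 4 libraries by 2564 ± 912 on average (SD, n = 4). Genes per cell were higher by 283 ± 172. Mitochondrial UMIs made up medians of 3.71 to 7.01% and 3.33 to 7.19%, a mean difference of -0.00445 ± 0.272 points, and ribosomal protein genes were lower in L2/3-Rorb by 0.63 ± 0.188 points in 4 of 4 libraries. The exact sign-flip permutation test over 4 libraries gave a two-sided p of 0.13 for all of these but the mitochondrial share (p = 1), and cannot go lower.

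A viral barcode UMI was found in 81.0, 76.3, 83.0 and 88% of L2/3-Rorb cells and in 50.5, 42.3, 51.0 and 77.5% of L2/3-Calb1 cells. The exact 95% intervals, which cover counting error only, were 68.9 to 93.1% over the libraries of L2/3-Rorb and 32.7 to 89.2% over those of L2/3-Calb1. They were apart within each unsorted library and overlapped in the sorted one (81.0 to 93.1% against 61.5 to 89.2%). After thinning to 10000 UMIs the shares were 77.3, 70.4, 78.6 and 74.4% against 47.7, 36.6, 45.5 and 59.0%, a difference of 28.0 ± 8.57 points (exact sign-flip permutation test, p = 0.13). At 5 or more UMIs before thinning they were 65.3 ± 4.34% against 26.3 ± 1.62% (mean ± SD, n = 4 libraries).

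The same reference was set beside the viral shares. Thinned to 2000 UMIs, 50.4 to 58.2% of L2/3-Rorb cells, 20 to 22.5% of L2/3-Calb1 cells and 2.23 to 3.45% of microglial barcodes held a viral UMI. The virus is a single feature in the matrices used here, whereas the study's methods describe a barcode for each injection site. Whether this feature counts the barcodes of all sites could not be checked, so a cell without a viral UMI may still carry one that is not counted. The target of a neuron was not analysed here, and more labelled axons cannot be told apart from more virus per labelled cell. Among cells of both subtypes, L2/3-Rorb made up 65.4, 60.6 and 65.5% in the unsorted libraries and 75.8% (exact 95% interval 68.5 to 82.1%) in the library sorted for EGFP, a share that the sort can set and that has no replicate.

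**Figure D5:**
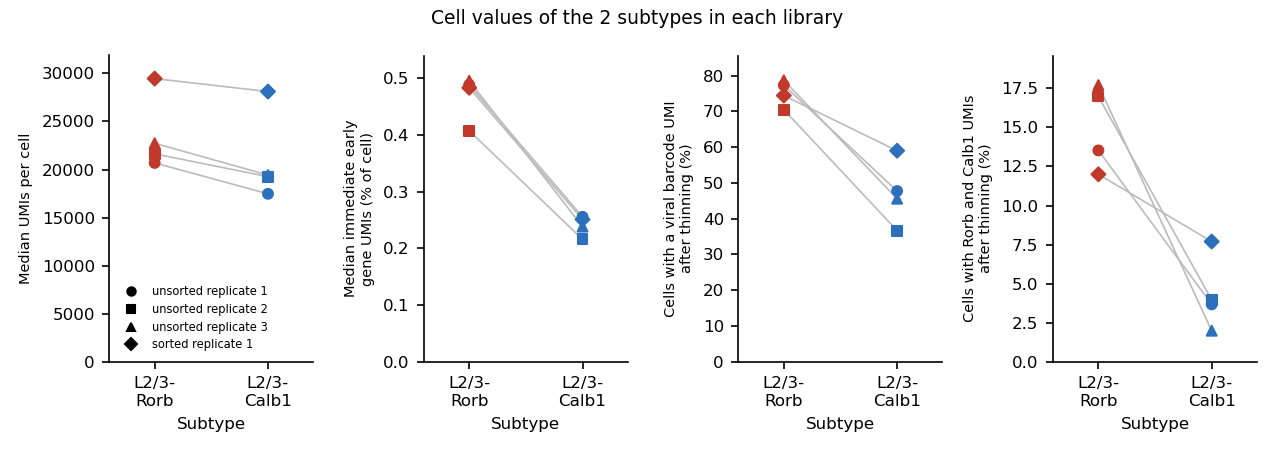
Each panel plots 1 value per library for L2/3-Rorb (red) and L2/3-Calb1 (blue), joined by a line: median UMIs per cell, the median percent of UMIs from immediate early genes, and the percent of cells thinned to 10000 UMIs that held a viral barcode UMI or UMIs of both Rorb and Calb1. All 4 lines fall from L2/3-Rorb to L2/3-Calb1 in every panel.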

How the data were processed

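Single-cell RNA-seq libraries (10x Genomics 3' v3) of 4 samples were used. The authors deposited raw UMI counts of called cells, made with Cell Ranger 3.0.2 against mm10 with the viral barcodes added. They clustered cells with Seurat 3.1.4 and Scanpy, regressing out counts, genes, mitochondrial ratio and sorting condition, and removed low-quality and non-neuronal clusters. Their deposited table gives each excitatory neuron a subtype, a total count and the percent of mitochondrial and ribosomal UMIs. Totals recomputed from the matrices differed from it by at most 70 UMIs. Between 5 and 30 cell barcode sequences were shared by pairs of libraries, and 0 among cells of these subtypes. No doublet caller was run here; the authors left out cells over 8000 genes or 60000 UMIs.

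Counts were summed per library and subtype (8 sums), without the viral feature, and tested with edgeR 4.0.16 (TMM factors, filterByExpr, glmQLFit, glmQLFTest) in R 4.3.3. The sums are paired because each library holds both subtypes from the same animals (correlation of their deviations 0.25 to 0.332 in unsorted libraries, against at most 0.234 to 0.258 with another library, and 0.691 against -0.387 in the sorted one). Other fits used DESeq2 1.42.0, no filter, library totals, no block, the legacy quasi-likelihood, thinned cells, cells with or without viral UMIs, cells low in immediate early genes (below each subtype's own median, which does not equalize that list), and each library left out. The edgeR steps were tested on simulated data. Library depth was 54749198 to 87841541 UMIs. Genes that pass the filter through 1 subtype alone had to differ, so list counts are descriptions. Positions are from GENCODE M21 (GRCm38).

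Genes named are the 10 with the highest and the 10 with the lowest fold changes (called, at least 30 CPM, 4 of 4 libraries in 1 direction), Rorb, Calb1, Cux2, Etv1 and Sulf1, and from each list the 3 largest calls of at least 10 CPM and the most abundant member, or all members of lists of up to 14; others are marked. Some genes that meet these rules are not reported here, though they stay in the fits and list counts. The subtypes, lists and tests were chosen with earlier results of these data known.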

Additional observations from a re-analysis of the deposited data

Results flagged for a closer look

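Within-library log2 ratios (L2/3-Rorb over L2/3-Calb1, 1 CPM added to each) were compared over the 4 libraries for the 137 genes named by the rule, tested and reported here. In 9 of them 1 library stood apart by Dixon's criterion, which flags about 1 in 20 groups by chance. Unsorted replicate 1 had the lower ratio for Scn7a, 3.93 against 4.58 to 4.71. Unsorted replicate 3 stood apart for Htr1f (1.98 against 2.53 to 2.64), Cnr1 (1.67 against 1.37 to 1.41), Sstr1 (-1.85 against -1.64 to -1.61), Slc17a6 (0.68 against 2.50 to 2.81) and Slc1a3 (-2.45 against -3.98 to -3.78). The sorted library stood apart for Gsg1l (-2.56 against -2.02 to -1.99), Grin2b (-0.54 against -0.37 to -0.34) and Neurod6 (1.36 against 1.13 to 1.15). In none of these genes did the library that stood apart have the opposite sign.

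For 5 genes, none of them called, the sorted library had the opposite sign from all 3 unsorted libraries; the difference was not tested, since there is 1 sorted library. The sorted ratio was -0.0282 for Grm7 (0.15 to 0.47 unsorted), -0.0172 for Pcdh10 (0.11 to 0.29), -0.0233 for Slc30a3 (0.20 to 0.31), 0.0232 for mt-Nd4 (-0.09 to -0.03) and 0.0694 for mt-Cytb (-0.11 to -0.04).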

How the results depend on the processing

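The 2453 genes called became 1526 (838 higher in L2/3-Rorb, 688 in L2/3-Calb1) in neurons without a viral UMI, where 8589 genes were tested, and 1039 (602 and 437) when log2 fold changes had to reach 1 in size. Without the replicate block 2039 genes were called, and 2024 of them were among the 2453 with the same direction; the other fits ranged from 1878 (DESeq2) to 2875 (no filter), and leaving out 1 library gave 2310 to 2484. No gene was called in opposite directions in these fits. Of 101 called genes that the naming rule selects, 90 kept their call in every alternative that tested them; 31 calls were lost and 11 gained over all genes so selected and all alternatives, and 0 were reversed. The list median of neuropeptide receptors ranged from -0.27 to 0.79, and it changed sign in 5 fits, as did that of NMDA receptors. In the fit with no filter the neuropeptide receptor median was 0.10 over 24 tested members, but -0.21 over the members of the main fit. The GABA receptor median changed sign in 4 fits and that of synaptic organizers in 3. Potassium channel, sodium, calcium and HCN channel, and cadherin medians did so only in neurons without a viral UMI. The calcium-binding median did so only without the sorted library, at 0.09 over 18 tested members. Over the 17 members of the main fit it was -0.05 there and kept its sign. The cause was not tested. The viral share differed by 39.0 points at 5 or more UMIs against 26.7 at 1 or more. Leaving out libraries for the cell values, and means in place of medians for the ribosomal and immediate early shares, were alternatives chosen after seeing the data. With 4 libraries, 1 of them sorted and pooled, transcripts at a few CPM rest on few UMIs.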

Other observations

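Some list members were too low for the test but had ranges that did not overlap. Scnn1a, a sodium channel gene known from layer 4 of sensory cortex and a member of the layer 4/5 list, was at 0.225, 0.549, 0.223 and 0.545 CPM in L2/3-Rorb and at 3.6, 3.44, 4.35 and 3.63 CPM in L2/3-Calb1, opposite in direction to the 10 called members of its list. S100b, which encodes a calcium-binding protein and names the subtype L5-S100b, was at 11, 13.7, 12.5 and 2.45 CPM in L2/3-Rorb and at 1.03, 0, 1.94 and 0 CPM in L2/3-Calb1. Npy2r, a receptor of neuropeptide Y, was at 0.225, 0, 0.446 and 0.272 CPM against 11.3, 3.44, 6.77 and 1.81 CPM. The sodium channel subunit Scn4b was at 5.4, 3.02, 5.13 and 10.9 CPM in L2/3-Rorb against 0.514, 0, 0.968 and 0.907 CPM. These genes were picked after their values were seen and were not tested after the filter on low counts.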
